A study of Mus musculus with 13 samples.

Results

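The flanks of the c-myc bait break, from just over 1 kb to 10 kb on either side of it, held 1660 of the 9577 junctions sequenced from c-myc cassettes in mouse cells. Members were chosen by measured position alone: the prey lay on chromosome 15, and the junction was more than 1000 and at most 10000 bp from the bait position, 61818880 of mm9. Of these junctions 1289 came from 3 libraries of B cells and 371 from 4 libraries of fibroblasts, and the whole series holds 16455 junctions in 13 libraries. The bait position was itself read from junction density, so that the abundance of junctions around it is a description. The nearest members lay 1001 bp away, where 3 junctions were found, and the farthest 9382 bp away. Just outside the bounds, 9 junctions lay at 1000 bp and the next beyond 10 kb lay at 10054 bp.

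In high-throughput genome-wide translocation sequencing, a fixed DNA break called the bait is made in cells, and the sequences that became joined to it, called prey, are read by PCR from the bait side. Here the break was cut by I-SceI, a nuclease with a long recognition site that mouse DNA lacks unless a cassette brings it in. The B cells were splenic B cells of genotype c-myc25-2xI activated with anti-CD40 and IL-4. The fibroblasts were tail cells of genotype c-myc25xI;RosaI-SceI-GR, transformed with SV40 and not activated. All 7 libraries carry a cassette at c-myc, and the labels do not say which end of the break the sequenced bait end is, what drives I-SceI in the B cells, or whether the libraries came from separate animals or cultures. The p-values below therefore measure the spread between these libraries, which may be technical.

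Broken ends are often trimmed or resected before they are joined, and a join to DNA that lies farther out on the same chromosome leaves a deletion, an inversion or a circle. A few bases that both ends share, called microhomology, can pair at such a join, while inserted bases belong to neither end as aligned. The gene at this place, Myc, encodes a transcription factor that drives cell growth, and its locus is a recurrent partner in translocations of B-cell tumours. Myc was the only gene label in these flanks. It was given to 1105 junctions, from -1913 to 3078 bp from the bait position, and the other 555 had no label, with the nearest of them on either side at -2015 and 3043 bp. Myc-labelled junctions made up 66.0, 61.9 and 68.5% of flank junctions in B-cell replicates 14, 36 and 37, and 76.0, 75.5, 68.9 and 71.8% in fibroblast replicates 1 to 4.

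Junctions were spread over many positions, and few positions recurred. The 1660 junctions used 1362 combinations of position and strand, of which 1225 were found in 1 library, 124 in 2, 12 in 3 and 1 in 4. The sequences around the 3 positions found in the most libraries of each group are shown, to give the sequence where joins recurred most between libraries. Each is the + strand of mm9 as assembled from the prey sequences in the deposited tables, 5′ to 3′, with the bases on the prey side of the junction in capitals.
B cells, +2080 bp, + strand, chr15:61820946-61820975: agaagaggcaaacccCTGCCAAGAGGTCGG
B cells, -1069 bp, - strand, chr15:61817797-61817826: CTTTGAGGGGTCAAAccgggaggtcgcttc
B cells, +2274 bp, + strand, chr15:61821140-61821169: ctgaagcagatcagcAACAACCGCAAGTGC
Fibroblasts, +1311 bp, + strand, chr15:61820177-61820206: aggaactgatctggaGGGGGGTGAATTACC
Fibroblasts, -1201 bp, - strand, chr15:61817665-61817694: TCAAGATGACAGAGGaaaggggaagggaaa
Fibroblasts, -1385 bp, - strand, chr15:61817481-61817510: ATTTCCTTTGGGCGTtggaaaccccggtaa
The position 2080 bp above the bait held 4 junctions in 3 B-cell libraries, and that 1311 bp above it held 1 junction in each of 4 fibroblast libraries. Each of the other 4 positions held 3 junctions in 3 libraries, and none of the 6 was used in the other cell type. Over all positions, 58 combinations of position and strand were found in both cell types. In 14 cases position, strand and the far end of the prey were shared by more than 1 library, 1 of them across cell types. Positions were compared as deposited. Bases shared by bait and prey are assigned to the bait in the B-cell tables and to the prey in the fibroblast tables. The same join can therefore stand at different positions in the tables, and sharing across cell types was not recounted by 1 rule. All 6 joins run outward, that is, the prey begins at the junction and runs away from the bait.

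B-cell replicate 14 stands apart from the other libraries and is given separately below. In it 427 of 605 flank junctions, or 70.6%, had a prey whose far end lay at GGCC, the recognition sequence of the restriction enzyme HaeIII, although its label states sonication. The corresponding shares were 2.59% in replicate 36 and 8.39% in replicate 37, while fibroblasts had 0 of 371, an upper limit of 0.809%. The 3 most used of these sites are shown with the 4-base recognition sequence in capitals, since 197 junctions of replicate 14 (32.6%) ended at them.
+2236 bp, chr15:61821102-61821131: cagctgccaagagGGCCaagttggacagtg
+2120 bp, chr15:61820986-61821015: atctccatcccgaGGCCacagcaaacctcc
+2431 bp, chr15:61821297-61821326: aaaacaacgaaaaGGCCcccaaggtagtga
They held 69, 68 and 60 junctions of replicate 14 and 9, 2 and 5 of the other 6 libraries together. The known part of the flanks has 26 such sites, and replicate 14 ended at 22 of them. Its junctions lay close to these sites: its longest prey was 145 bases and its median prey 45 bases, against medians of 113 and 92 in the other B-cell libraries and 129 to 146 in fibroblasts. On the higher-coordinate side the innermost known sites of the flanks lie at 1039 and 2120 bp, and sites within 1 kb were not listed. Replicate 14 had 0 + strand junctions between 1250 and 1500 bp and 4 between 1500 and 1750 bp. Replicates 36 and 37 had 45 and 13 in the first of these bins. The low counts of replicate 14 between 1250 and 1750 bp thus fall between these known sites. Whether its junctions follow the sites along the flanks was not tested. Of the recurrent B-cell positions shown above, those at 2080 and -1069 bp lie just inward of known sites at 2120 and -1127 bp. Both were found in replicates 36 and 37 as well as in replicate 14, and the part of the sites in their recurrence was not tested. What the far ends at GGCC do to the side, strand and join measures of replicate 14 was not tested either.

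**Figure D1:**
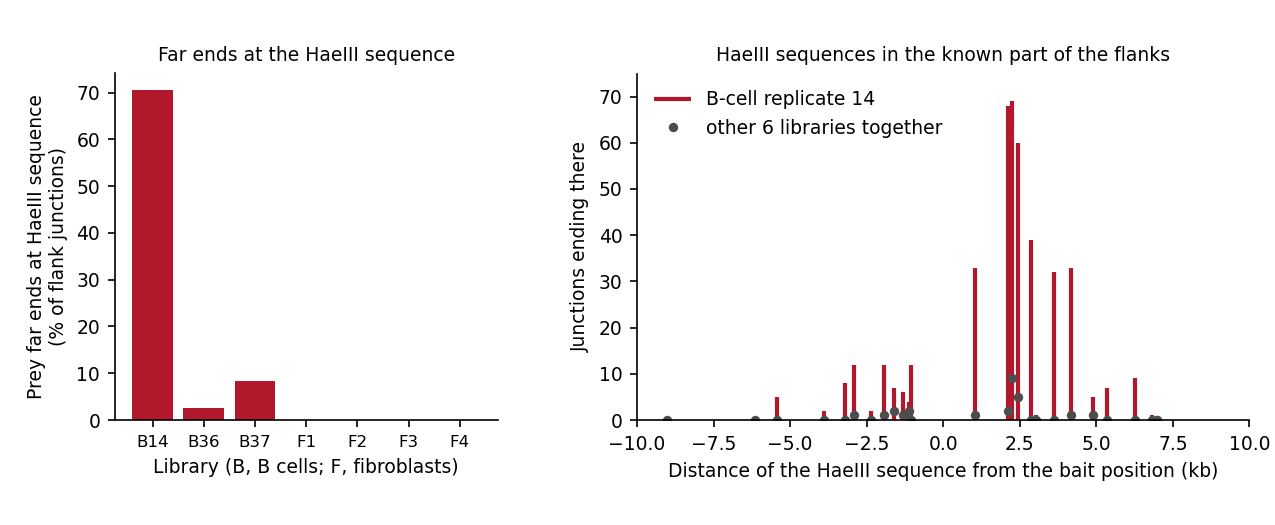
Left, the share of flank junctions whose prey ended at the HaeIII recognition sequence in each library, in percent. Right, junctions that ended at each known site, by the distance of the site from the bait position in kb, as bars for B-cell replicate 14 and points for the other 6 libraries together. Replicate 14 stands at 70.6% and the other libraries at 0 to 8.39%, and 3 sites from 2120 to 2431 bp hold its highest counts.

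B cells had more of their junctions in the flanks than fibroblasts. The libraries held 605 of 2918 junctions there in B-cell replicate 14 (20.7%, Wilson 95% interval 19.3 to 22.2), 541 of 2850 in replicate 36 (18.98%, 17.6 to 20.5) and 143 of 878 in replicate 37 (16.3%, 13.99 to 18.9). Fibroblast replicates 1 to 4 held 121 of 980 (12.3%, 10.4 to 14.6), 98 of 769 (12.7%, 10.6 to 15.3), 74 of 620 (11.9%, 9.62 to 14.7) and 78 of 562 (13.9%, 11.3 to 16.98). The intervals cover counting error only. Every B-cell library lay above every fibroblast library, although the interval of B-cell replicate 37 overlaps that of each fibroblast library. The mean was 18.7% ± 2.24 (SD, n = 3) against 12.7% ± 0.836 (SD, n = 4), 5.94 percentage points apart. The two-sided exact permutation p of 0.0571 is the smallest that 3 against 4 libraries can give, and its adjusted value over 9 measures was 0.0857. Without B-cell replicate 14 the difference was 4.91 points. Counting each position and strand once per library gave 3.87 points, and leaving junctions of the partner break out of the total gave 3.96 points, with overlapping libraries in both (exact permutation p = 0.114 in each).

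Relative to the junctions closer to the bait, the part held by the flanks did not differ between the cell types beyond the spread of the libraries. Of all junctions within 10 kb of the bait position, B cells had 37.7% ± 3.62 (SD, n = 3) beyond 1 kb and fibroblasts 37.9% ± 3.10 (SD, n = 4), which is -0.192 points for B cells minus fibroblasts (exact permutation p = 1). The libraries spanned 35.1 to 41.8% in B cells and 35.1 to 41.9% in fibroblasts. This depends on the inner bound. When only junctions beyond 2000 bp were counted, B cells had 23.7% and fibroblasts 15.5% of junctions within 10 kb there, 8.21 points apart and without overlap (exact permutation p = 0.0571).

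The higher-coordinate side of the break carried most B-cell flank junctions, while fibroblast junctions were split nearly evenly. It held 80.8, 72.8 and 78.3% of flank junctions in B-cell replicates 14, 36 and 37. In fibroblast replicates 1 to 4 it held 57.0, 52.0, 55.4 and 50%. The groups did not overlap, at 77.3% ± 4.09 (SD, n = 3) and 53.6% ± 3.18 (SD, n = 4). The difference of 23.7 points had an exact permutation p of 0.0571 and an adjusted p of 0.0857, and was 21.96 to 25.96 points without single libraries. The densest point of B-cell junctions lay 470 bp above the shared bait position and that of fibroblasts 2 bp above it. With distances counted from each group's own densest point the difference was 12.4 points, still without overlap.

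The excess of B cells lay mainly in 1 of 4 combinations of side and strand, junctions on the higher side that run outward on the + strand. These made up 15.6, 12.5 and 12.2% of all junctions in B-cell replicates 14, 36 and 37 and 6.12, 5.72, 6.45 and 6.76% in fibroblast replicates 1 to 4. The mirror class, on the lower side and outward on the - strand, made up 3.46, 4.39 and 3.19% in B cells and 3.88, 4.29, 4.19 and 5.34% in fibroblasts. The libraries of both cell types overlapped in this mirror class and did not in the first. No test was run on single classes.

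Inward junctions, whose prey runs back toward the bait, were few. On the higher side they numbered 34, 37 and 5 in the B-cell libraries and 9, 7, 1 and 1 in fibroblasts. On the lower side they numbered 15, 22 and 3 in B cells and 14, 14, 7 and 9 in fibroblasts, or 0.514, 0.772 and 0.342% of the B-cell libraries against 1.43, 1.82, 1.13 and 1.60% of the fibroblast libraries. In that class every fibroblast library was above every B-cell library.

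**Figure D2:**
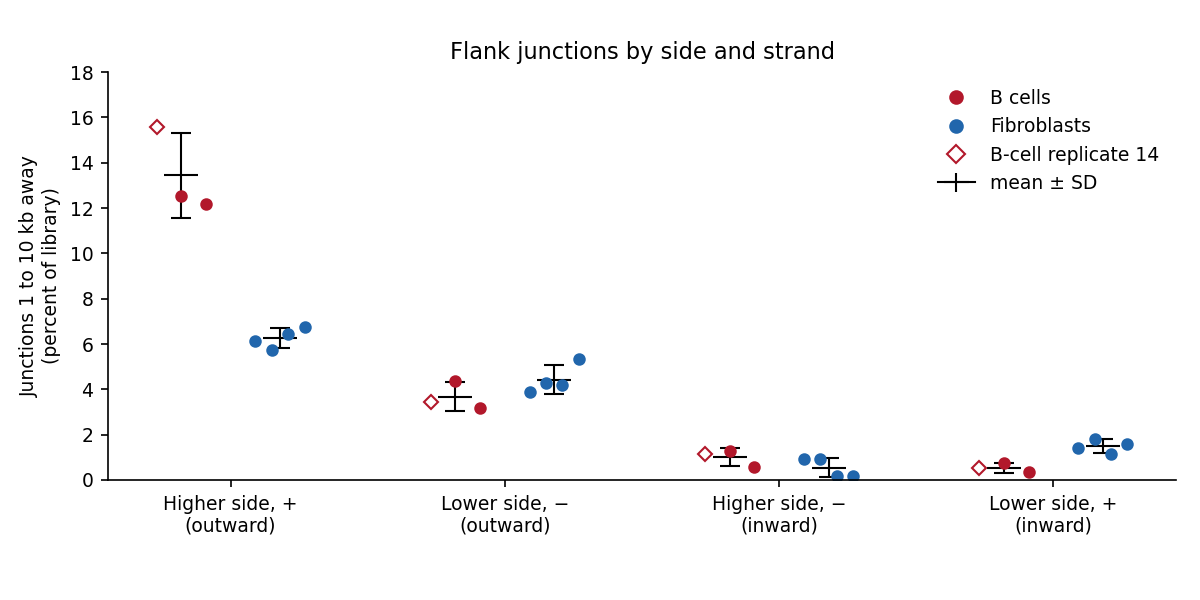
Flank junctions on each side and strand as percent of all junctions of a library; points are libraries (3 of B cells, with replicate 14 as an open diamond, and 4 of fibroblasts) and bars the mean ± SD. B-cell libraries lie at 12.2 to 15.6% and fibroblast libraries at 5.72 to 6.76% for the + strand of the higher side, and both overlap for the - strand of the lower side.

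Most joins ran outward in every library. The outward share was 91.9, 89.1 and 94.4% in B-cell replicates 14, 36 and 37 and 81.0, 78.6, 89.2 and 87.2% in fibroblast replicates 1 to 4. At 91.8% ± 2.66 (SD, n = 3) and 84.0% ± 5.02 (SD, n = 4) the groups differed by 7.82 points with overlapping libraries (exact permutation p = 0.114, adjusted p = 0.129). By side, 90.6 to 95.5% of higher-side junctions ran outward in B cells and 86.3 to 97.6% in fibroblasts. On the lower side 85.0 to 90.3% did in B cells and 70.2 to 78.8% in fibroblasts. The + strand share, which mixes side and direction, was 74.9% ± 4.20 (SD, n = 3) against 61.0% ± 1.84 (SD, n = 4), 13.9 points apart without overlap (exact permutation p = 0.0571, adjusted p = 0.0857). From each group's own densest point it was 4.60 points and the libraries overlapped.

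B-cell junctions lay farther out. The median distance was 2344, 2135 and 2167 bp in B-cell replicates 14, 36 and 37, and 1818, 1686, 1775.5 and 1762 bp in fibroblast replicates 1 to 4. The groups did not overlap, at 2215 ± 113 bp (SD, n = 3) and 1760 ± 55.0 bp (SD, n = 4), 455 bp apart (exact permutation p = 0.0571, adjusted p = 0.0857). The gap was 391 bp without replicate 14. The size of this difference depends on where the flank begins. From each group's own densest point it was 180 bp, still without overlap. With an inner bound of 2000 bp it was 319 bp and the libraries overlapped, and with 500 bp it was -29.96 bp (exact permutation p = 0.800). Between 900 and 1000 bp, just inside the excluded zone, there were 200, 41 and 13 junctions in B-cell replicates 14, 36 and 37 and 6 to 11 in each fibroblast library. Between 1000 and 1100 bp there were 47, 26 and 3 in the B-cell libraries and 2 to 7 in each fibroblast library, so that most of both B-cell counts came from replicate 14.

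The band from 1 to 2 kb held 59.0% ± 1.94 (SD, n = 4) of fibroblast flank junctions, with libraries from 57.0 to 61.5%. In B cells it held 36.7% ± 13.1 (SD, n = 3), with libraries from 21.7 to 45.8%, and the lowest was replicate 14. The difference of -22.3 points (exact permutation p = 0.0571, adjusted p = 0.0857) was -14.8 points without replicate 14, and -5.01 points from each group's own densest point. Beyond 3 kb lay 30.9, 32.0 and 25.9% of flank junctions in the B-cell libraries and 12.4, 14.3, 18.9 and 16.7% in fibroblasts. Beyond 5 kb there were 48, 47 and 14 junctions in the B-cell libraries, which is 7.93 to 9.79% of their flank junctions, and 5, 5, 3 and 2 in fibroblasts, which is 2.56 to 5.10%. At each of these limits replicates 36 and 37, where 2.59 and 8.39% of far ends lay at a HaeIII site, differed from the fibroblasts in the same direction as replicate 14.

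**Figure D3:**
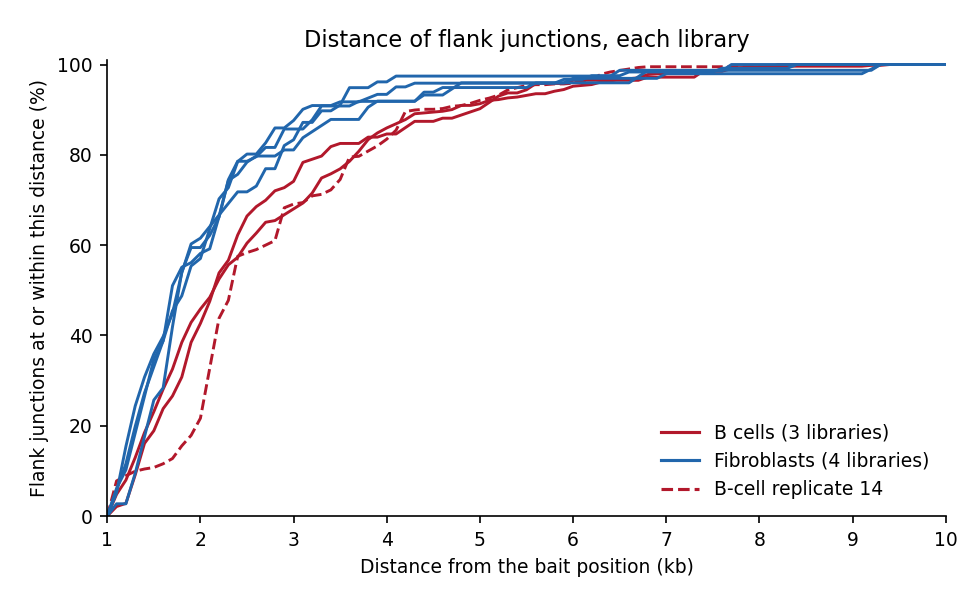
Cumulative percent of flank junctions by distance from the bait position in kb, 1 line per library, with B-cell replicate 14 dashed. Fibroblast lines rise earlier: 57.0 to 61.5% of their junctions lie within 2 kb, against 21.7 to 45.8% in B cells.

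Outward junctions on the + strand of the higher side were compared band by band. Between 1 and 1.5 kb they made up 3.36% ± 1.52 (SD, n = 3) of a B-cell library per kb and 3.65% ± 0.891 (SD, n = 4) of a fibroblast library, and between 1.5 and 2 kb 4.72% ± 2.37 and 4.20% ± 0.931. Between 2 and 3 kb the values were 5.12% ± 3.21 and 1.43% ± 0.418, and between 3 and 4 kb 2.11% ± 0.670 and 0.531% ± 0.129. From 4 to 5 kb they were 0.908% ± 0.692 in B cells, from 72 junctions of which 49 belonged to replicate 14, and 0.197% ± 0.140 in fibroblasts, from 6. From 5 to 7 kb they were 0.508% ± 0.0574 in B cells, from 65 junctions, and 0.0753% ± 0.0679 in fibroblasts, from 4. The libraries of the cell types overlapped in both bands up to 2 kb and did not overlap in the 4 bands from 2 to 7 kb, although from 4 to 5 kb B-cell replicate 37, at 0.342% per kb, was next to fibroblast replicate 3, at 0.323%.

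The ratio of these means was 0.921, 1.12, 3.58, 3.97, 4.61 and 6.74 in the 6 bands in turn. With replicates 36 and 37 alone it was 1.16, 1.45, 2.32, 3.80, 2.65 and 6.81, and the last 2 bands rest on 6 and 4 fibroblast junctions. B cells were also higher inside the excluded zone. Between 500 and 750 bp above the bait, + strand junctions made up 10.3, 3.79 and 6.04% of B-cell replicates 14, 36 and 37 and 1.13 to 3.38% of the fibroblast libraries. Between 750 and 1000 bp they made up 9.73, 2.91 and 2.96% against 1.07 to 2.24%. The B-cell excess on this side and strand was thus seen below 1 kb as well as beyond 2 kb. Between 1.5 and 2 kb replicates 36 and 37, at 6.25 and 5.92% per kb, were above the highest fibroblast library at 5.48%, and replicate 14, at 1.99%, was below the lowest at 3.38%. No band or bin was tested by itself.

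On the lower side the libraries overlapped in the bands compared here. Outward junctions on the - strand made up 2.39% ± 0.999 of a library per kb in B cells and 3.76% ± 1.15 in fibroblasts between 1 and 1.5 kb, 0.872% ± 0.272 and 1.18% ± 0.227 between 2 and 3 kb, and 0.376% ± 0.132 and 0.359% ± 0.214 between 3 and 4 kb (SD, n = 3 and 4). Farther out B cells had the higher means, with few junctions: 0.210% ± 0.230 and 0.0848% ± 0.0982 between 4 and 5 kb, from 9 and 2 junctions, and 0.0458% ± 0.0648 and 0.0163% ± 0.0325 between 5 and 7 kb, from 8 and 1. In fibroblasts the step from the first band to that of 1.5 to 2 kb differed by side, from 3.65 to 4.20% per kb on the higher and from 3.76 to 1.72% per kb on the lower side.

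The + strand had few junctions between 1000 and 1250 bp in most libraries. This bin of 250 bp held 0.737 and 0.456% of B-cell replicates 36 and 37, against 1.58 and 1.48% in the next bin. In fibroblast replicates 2, 3 and 4 the values were 0.260, 0.161 and 0.890%, against 1.30, 1.45 and 1.42%. B-cell replicate 14, with 1.03% and then 0 junctions, and fibroblast replicate 1, with 0.816 and then 0.714%, went the other way. In the bin from 1000 to 1250 bp, 86% of the reference bases are covered by a deposited prey sequence, and in its neighbours all are.

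**Figure D4:**
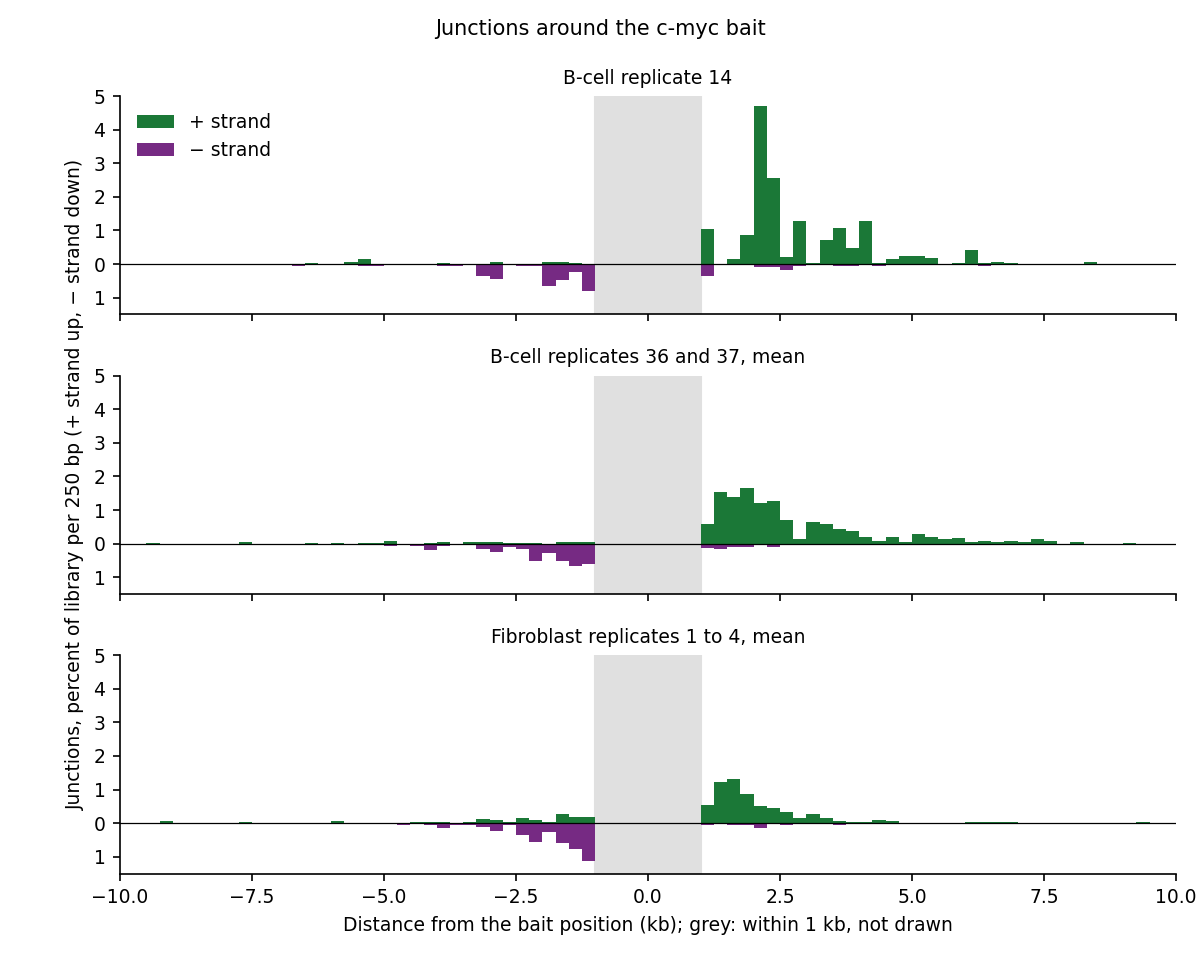
Junctions per bin of 250 bp as percent of a library, by distance from the bait position in kb, with + strand junctions drawn upward and - strand junctions downward; the grey zone within 1 kb is not drawn. Replicates 36 and 37 (mean) extend past 5 kb on the higher side, where fibroblasts (mean of 4) have few junctions, and replicate 14 is concentrated in separate peaks.

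At the joins themselves, microhomology, counted here from 1 shared base on, was the most common form in every library. Joins that ran on into cassette sequence could not be classed and made up 14.9, 40.5 and 37.8% of flank junctions in B-cell replicates 14, 36 and 37 and 24.3 to 35.7% in fibroblasts. A further 9, 13 and 0 joins in the B-cell libraries and 0 or 1 in each fibroblast library lacked known reference bases. This left 506, 309 and 89 classified joins in B cells and 82, 63, 55 and 55 in fibroblasts. Of these 59.9, 64.4 and 66.3% had microhomology in B cells and 76.8, 71.4, 65.5 and 74.5% in fibroblasts. The means of 63.5% ± 3.29 (SD, n = 3) and 72.1% ± 4.93 (SD, n = 4) differed by -8.54 points with overlap (exact permutation p = 0.114, adjusted p = 0.129). Among joins with microhomology, the median length was 2, 3 and 2 bases in B cells and 3, 3, 2 and 3 bases in fibroblasts. Joins that shared exactly 1 base made up 10.1 to 16.4% of the classified joins of a library. The share that unrelated ends would show by chance was not computed, so these values do not tell whether homology guided the joins.

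Inserted bases were more frequent in B cells. They were found in 34.0, 28.8 and 22.5% of classified joins in B-cell replicates 14, 36 and 37 and in 19.5, 17.46, 20 and 18.2% in fibroblast replicates 1 to 4. The groups did not overlap, at 28.4% ± 5.77 (SD, n = 3) and 18.8% ± 1.17 (SD, n = 4), 9.63 points apart (exact permutation p = 0.0571, adjusted p = 0.0857). Without replicate 14 it was 6.85 points. The libraries overlapped with an inner bound of 2000 bp, at 14.8 points (exact permutation p = 0.171), and with an outer bound of 20000 bp, at 8.46 points (exact permutation p = 0.114). The median insertion was 4, 6 and 4.5 bases in B cells and 4.5, 4, 3 and 4.5 bases in fibroblasts. Blunt joins made up 6.13, 6.80 and 11.2% in B cells and 3.66, 11.1, 14.5 and 7.27% in fibroblasts, with overlap. Loss at the bait end was counted from the most frequent bait end of the reads, which was taken as the break. Its median was 22, 15.5 and 14 bases in the B-cell libraries and 19, 20, 19.5 and 18 in the fibroblast libraries. Shared bases are assigned to the bait in the B-cell tables and to the prey in the fibroblast tables, so homology was recounted by 1 rule for all. That rule used the bait consensus of 1 library for both genotypes, and its effect on the insertion shares was not tested. Median read length also differed, at 194, 282 and 267 bases in the flank junctions of B cells and 287.5 to 310 in those of fibroblasts, and its part in the insertion result was not tested.

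**Figure D5:**
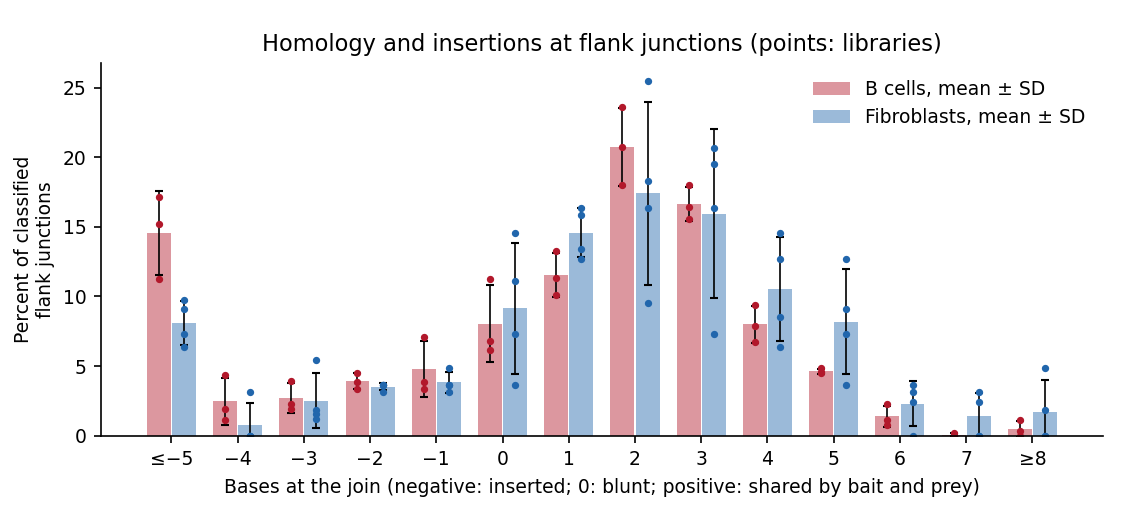
Classified flank joins by the number of bases at the join, in percent of a library's classified joins, with bars for the mean, error bars for the SD and points for the libraries; negative numbers are inserted bases, 0 is a blunt join and positive numbers are shared bases. Insertions total 22.5 to 34.0% in B-cell libraries and 17.46 to 20% in fibroblast libraries.

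The flanks were then set against the first kb around the bait in the same library, which shares the bait, the PCR and the reads. The + strand share was lower in the flanks in 6 of 7 libraries, with a mean difference of -9.85 points (exact sign-flip permutation p = 0.0313, adjusted p = 0.125 over 8 comparisons). Insertions were lower in the flanks in 6 of 7 libraries, with a mean difference of -4.96 points (exact sign-flip permutation p = 0.0469, adjusted p = 0.125). Microhomology was higher in 6 of 7, by 3.60 points (exact sign-flip permutation p = 0.25), and the higher-side share was -4.11 points apart (exact sign-flip permutation p = 0.156). None of these passed the adjusted threshold of 0.05. When each position and strand was counted once, the + strand difference was -5.23 points (exact sign-flip permutation p = 0.0938) and the higher-side difference -8.32 points (exact sign-flip permutation p = 0.0625). The outward share was higher in the flanks in all 4 fibroblast libraries, by 4.43 to 22.8 points, while in B cells the difference ran from -3.43 to 4.63 points. Over all 7 libraries it was 6.58 points (exact sign-flip permutation p = 0.0938), and only 0.197 points when each position and strand was counted once. Whether the cell types differ in this contrast was not tested.

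A second comparison used junctions 1 to 10 kb from the other, partner break of chromosome 15, which lay 95.9 kb from the bait position in the B-cell tables and 104 kb away in those of fibroblasts. There were 265, 113 and 35 such junctions in the B-cell libraries and 35, 21, 18 and 12 in the fibroblast libraries. Joins ran outward from the bait more often than junctions there ran outward from the partner, in all 7 libraries and by 20.4 ± 11.4 points (SD, n = 7; exact sign-flip permutation p = 0.0156, adjusted p = 0.125, and 0.0156 is the least that 7 libraries can give). The median distance in the flanks of the partner break, averaged over libraries, was 2119 bp in B cells and 2341.5 bp in fibroblasts. Bait flanks minus partner flanks averaged 96.3 bp in B cells and -581 bp in fibroblasts, with -291 bp over all (exact sign-flip permutation p = 0.172). By library it was -36, -205 and 530 bp in B-cell replicates 14, 36 and 37, and -1067 to -366.5 bp in fibroblasts. The positive B-cell mean thus rests on replicate 37, which had 35 junctions at the partner. Fibroblast replicate 4, with 12 junctions at the partner, had the smallest orientation difference, 3.85 points.

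Sequence around the joins was compared with that of the known flank positions. These are known only where a deposited prey sequence covers them, so the baseline is partly drawn from the surroundings of the junctions themselves. A close match between junctions and baseline is therefore partly built in. The word AGCT, its own reverse complement and a motif that the enzyme AID targets, lay within 10 bp of 9.88% of all known flank positions. It lay within that distance of 9.98, 9.98 and 7.14% of the junctions with known sequence in the B-cell libraries and of 7.76, 16.7, 9.59 and 3.85% of those in the fibroblast libraries. Fibroblast libraries lay on both sides of the share of all known positions, and the highest B-cell value, 9.98%, was next to it. GC content around the junctions was 46.5 to 49.7% in B cells and 46.8 to 50.9% in fibroblasts, against 45.5% over all known positions and 47.2% over those within 5 kb, where most junctions lie. The match is to the letters alone.

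Libraries without a c-myc cassette give the background of these flanks. Their cassette sat in IgH (IgH2-28xI), in B cells activated with anti-CD40 and IL-4 and in T cells activated with ConcanavalinA and IL-2. They had 2 of 6878 junctions in the c-myc flanks, both in IgH B-cell replicate 21 and on the + strand, 1680 and 1684 bp above the bait position. For IgH T cells the count was 0 of 4347, an upper limit of 0.0690%. At their own bait, the range from 1 to 10 kb held 16.9, 18.5 and 20.7% of junctions in IgH B cells and 22.3, 24.5 and 29.2% in IgH T cells. The median distances there were 2189.5, 2160 and 2844 bp in B cells and 1874.5, 1692 and 2061 bp in T cells. At both loci the B-cell libraries thus had the larger median distances, with flanks that begin at 1 kb. The share of a library in the flanks had the other order at IgH, where T cells were higher. The outward share at IgH was 86.7 to 93% in B cells and 91.6 to 95.6% in T cells. The higher-side share there was 57 to 72.2% in B cells and 70.8 to 83.9% in T cells. These values stand side by side, without a test, since locus, cassette and sequencing run differ.

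Cell type is not the only thing that separates the c-myc groups. All 4 fibroblast libraries were read on 1 sequencing run and each B-cell library on a run of its own, so no run holds both. Genotype, the supply of I-SceI, activation, transformation, sequencing run and cell type changed together and cannot be told apart. No comparison between B cells and fibroblasts could pass an exact permutation p of 0.05 with 3 against 4 libraries.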

How the data were processed

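Junctions of c-myc cassettes were measured by translocation sequencing of genomic DNA in 3 B-cell and 4 fibroblast libraries of 562 to 2918 junctions, with 6 IgH libraries for background. Per the labels' protocols, DNA was sonicated, amplified by adapter PCR and read on a MiSeq. The tables hold 1 line per read with prey position, strand, read and gene label, per the file headers. They also hold an alignment score that the authors deposited as their aligner gave it, which was not used here. Positions are on mm9, per the submitters' processing notes, and which aligner and filters were used was not given in the sources used.

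The rule for members, the measures and the alternatives were chosen with earlier results of these data known. Lines were counted as deposited. Side, strand and distance were taken relative to position 61818880, and libraries were the unit of every test. Reference bases of the flanks were assembled from the deposited prey sequences, which covered 12649 of 18000 bases (70.3%) with 0 clashes between libraries or strands. No genome was used. The bait end of each read was found by comparison with 1 consensus for all libraries, that of the library with the longest median read. Each library's own consensus served only to align read starts, and the effect of this choice was not tested. The break was taken as the most frequent bait end, with libraries weighted equally. The prey was extended backward on the assembled reference. Joins with words of 12 bases from the cassette, or reaching 5 or more bases past the break, were left unclassified. Of these steps, only the backward extension of the prey was tested on simulated data, with the bait end given. Between groups, differences of means were tested with exact permutation tests (two-sided), with Benjamini-Hochberg adjustment over 9 measures, and within-library differences by two-sided exact sign-flip permutation tests, adjusted over 8. Single-library shares have Wilson 95% intervals, and a count of 0 is given the limit that 3 counts would make. Named positions are the 3 in each group found in the most libraries, then with the most junctions, then nearest to the bait, with the members nearest to each bound and every gene label. GGCC sites of replicate 14 were added after seeing its values, and the 3 shown are those with most of its junctions. Alternatives were counting repeated junctions once, other bounds (500, 2000, 5000 and 20000 bp), each group's own densest 10 bp window as the bait position, prey of at least 50 bases, positions of 1 library only, another total and leaving out each library. Python 3.11.15, numpy 2.4.6, pandas 2.3.3, SciPy 1.17.1, Biopython 1.88 and matplotlib 3.10.9 were used.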

Additional observations from a re-analysis of the deposited data

Results flagged for a closer look

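In libraries whose cassette lies in IgH, where no c-myc break was made, 2 junctions of IgH B-cell replicate 21 fell into the c-myc flanks, at 1680 and 1684 bp above the bait position. They were singled out because IgH T cells had 0 of 4347 junctions there, which allows up to 0.0690%. The 2 lie 4 bp apart in 1 library, and whether they are separate joins was not tested. No library of the 4 fibroblast libraries lay outside Dixon's bound in any of 14 measures, with a largest ratio of 0.824. The B-cell group of 3 is too small for this rule.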

How the results depend on the processing

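The 17 comparisons were recomputed under 9 to 17 alternatives each, which gave 216 values, and 206 of these kept the direction of the main result. Since no main comparison passed an adjusted p of 0.05, this says nothing on significance. The exceptions were 9 values of the share of junctions beyond 1 kb (-0.192 points) and 1 of the median distance, -29.96 bp with an inner bound of 500 bp. The share was 0.257 with 1 junction per position and strand, 0.374 with the far end added and 0.726 from each group's own densest point. With inner bounds of 500 and 2000 bp it was 6.61 and 8.21. It was 0.597 and 1.09 without B-cell replicates 14 and 37, and 0.0637 and 1.16 without fibroblast replicates 1 and 4. Without the other single libraries it kept its direction, down to -2.26. B cells minus fibroblasts without single libraries ran from 4.91 to 7.13 points for the flank share, 21.96 to 25.96 for the higher side, 12.5 to 16.3 for the + strand, 6.01 to 9.55 for outward joins, 391 to 495 bp for the median distance, -26.9 to -14.8 for the band from 1 to 2 kb, -10.7 to -6.72 for microhomology and 6.85 to 12.6 for insertions. The 1 to 2 kb band has no value with an inner bound of 2000 bp, and no value within a sequencing run was possible. No paired analysis was possible because the c-myc groups share no replicate numbers. Depth limits the outer part of the flanks, where the 4 fibroblast libraries hold 2 to 5 junctions each beyond 5 kb.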
